A study of Mus musculus with 30 samples.

Results

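Apelin and adrenomedullin are secreted peptides of the vessel wall, and 7 genes of the 2 systems were followed here in microvessels of the mouse brain. Apln (apelin) and Adm (adrenomedullin) encode the ligands, Aplnr the apelin receptor, Calcrl the receptor protein that binds adrenomedullin together with a partner from Ramp2 or Ramp3, and Esm1 the proteoglycan endocan. Every probe set that the array's annotation pairs with exactly 1 of these genes was taken, 11 probe sets of the 34958 that have a single gene, and the one with the highest mean over all arrays came first. The 7 genes are part of 18194 covered by the arrays and of 11243 that passed the expression filter, which all 7 passed. Of the 11 probe sets 10 passed, and 1 of the 3 Calcrl probe sets (1459536_at) read the lowest value of the scale on every array. A further 2 probe sets pair Ramp2 with a neighbouring gene and were not used.

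The study isolated vessel fragments from brains of 2 mouse models with few pericytes, the contractile cells on the outside of capillaries, and measured total RNA on 30 arrays. The ret mutants (pdgfbret/ret, 4 arrays, labelled 7 or 10 months) are homozygous for a Pdgfb allele that lacks the retention motif, by which the secreted growth factor stays near the endothelium, and the ret controls (pdgfbret/+, 4 arrays, 8 or 10 months) carry 1 such allele; both are labelled C57/B6/J with no brain region named. The R26P mutants (Tie2Cre, R26P+/0, pdgfb-/-) have no functional mouse Pdgfb and 1 human PDGFB copy at the Rosa26 locus that Cre turns on in endothelium. The R26P controls (R26P+/0, pdgfb+/+) carry the same copy in its silent form and are labelled without Cre, so Cre and the loss of Pdgfb cannot be told apart; Tie2Cre is also known to act in blood cells. Each R26P genotype had 4 cerebrum and 4 cerebellum arrays on a mixed C57/SV129 background, and their ages are given as 1 year in the sample titles but 2 months elsewhere in the labels. Wild-type mice (C57/B6/J, Notch3+/+, 2 months) gave 3 cerebellum and 3 cerebrum arrays. Nothing in the labels beyond the word biological says how the replicates were obtained, so the p-values measure the spread between these arrays.

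Levels are log2 signals, on which a difference of 1 is a doubling and 2.16 is the lowest value of the mutant and control arrays. The wild-type arrays have another lowest value, 2.17, and were taken as normalized apart, so wild type is compared only between its own regions. Pdgfb, the targeted gene, was low in R26P mutants, at 4.73 to 8.01 in mutant cerebrum against 12.51 to 12.86 in control cerebrum and at 4.73 to 7.51 in mutant cerebellum against 12.05 to 12.52 in control cerebellum. In ret mutants it read 11.70 to 12.51 against 11.72 to 12.12 in ret controls, and since the ret allele removes a motif rather than the gene, this checks nothing. Endothelial markers were high throughout (mean of 14 genes between 12.88 and 13.70 on every array), whereas all 10 measured pericyte markers fell in each mutant comparison. Gh, a pituitary hormone gene, stood above 8 on 3 of 4 ret mutant arrays (numbers 1, 2 and 4) and on 0 of 4 ret control arrays. It did so too on 2 mutant and 2 control arrays of R26P cerebrum, on number 3 of the R26P mutant cerebellum and on 1 wild-type cerebrum array. Xist, which is transcribed from the inactive X of females, went against the labelled sex on all 4 ret controls and on 0 of the other arrays.

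Apelin acts through a G protein-coupled receptor on endothelial cells, and in the growing mouse retina Apln and Esm1 mark the tip cells that lead a sprout. Adrenomedullin relaxes vessels and tightens the endothelial barrier. Its receptor takes its ligand from the accessory protein: Calcrl with Ramp1 is a receptor for calcitonin gene-related peptide, and with Ramp2 or Ramp3 for adrenomedullin. Both ligand genes are known targets of hypoxia-inducible factor in other tissues.

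For this reason the windows around the starts of the genes, from 250 bases before to 50 after, were searched for the core of the hypoxia response element, ACGTG or GCGTG on either strand. RefSeq windows (GRCm38.p6) were at hand for 5 of the 7 genes. The 250 bases before the start are shown for the 3 genes that changed in both models, in the direction of the gene, with matches in capitals.
Apln: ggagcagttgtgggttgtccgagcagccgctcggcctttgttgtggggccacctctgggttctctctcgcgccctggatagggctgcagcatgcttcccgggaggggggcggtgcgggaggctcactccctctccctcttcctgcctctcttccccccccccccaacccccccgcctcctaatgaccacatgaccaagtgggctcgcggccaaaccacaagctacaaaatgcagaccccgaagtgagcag
Adm: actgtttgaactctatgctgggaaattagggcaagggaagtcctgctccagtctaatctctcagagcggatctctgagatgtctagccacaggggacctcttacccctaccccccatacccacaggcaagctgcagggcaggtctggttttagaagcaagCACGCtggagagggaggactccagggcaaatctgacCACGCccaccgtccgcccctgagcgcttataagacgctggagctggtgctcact
Ramp3: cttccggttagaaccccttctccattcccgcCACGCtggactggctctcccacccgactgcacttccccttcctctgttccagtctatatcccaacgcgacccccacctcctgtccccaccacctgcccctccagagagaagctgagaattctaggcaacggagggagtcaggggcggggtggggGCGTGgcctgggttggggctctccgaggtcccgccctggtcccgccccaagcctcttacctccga
The Apln sequence is chrX:48034854-48035103 on the minus strand, the Adm sequence is chr7:110627407-110627656 on the plus strand and the Ramp3 sequence is chr11:6658283-6658532 on the plus strand. Apln, the gene with the largest rise of the 7 in each mutant comparison, held 0 matches in its window. Adm held 2 matches to GCGTG, at positions -90 and -54 relative to the start, and Ramp3, which fell, also held 2, at positions -219 and -65. Calcrl held 1 match, at position 21, and Esm1 held 1, at position -47. Of all 32851 windows of this length, 19.6% hold ACGTG, 32.4% hold GCGTG and 43.8% hold either, so a match is common and says nothing of binding.

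Apln rose in all 3 mutant comparisons, more than any of the other 6 genes. Its log2 signal was 10.13, 10.48, 10.71 and 10.15 in the ret mutants, against 6.26, 5.82, 6.85 and 6.38 in the ret controls. In cerebrum it was 10.14, 10.93, 10.07 and 10.43 in R26P mutants, against 5.69, 5.72, 5.91 and 5.39 in R26P controls. In cerebellum it was 9.67, 9.96, 9.86 and 10.01 in R26P mutants, against 6.001, 5.41, 6.19 and 5.13 in R26P controls. Over the 24 arrays, the lowest mutant array stood 2.82 log2 units above the highest control array. The difference was 4.04 ± 0.23 log2 units in ret (SE, n = 4 and 4), a 16.5-fold rise with a 95% confidence interval of 11.4 to 23.9 (limma, adjusted p = 1.05e-04). In R26P cerebrum it was 4.72 ± 0.20 units, 26.3-fold (19.0 to 36.5, limma adjusted p = 1.74e-05), and in R26P cerebellum 4.19 ± 0.23 units, 18.3-fold (12.6 to 26.7, limma adjusted p = 7.6e-05). Ordered by size, the rise was number 35 of 11243 genes in ret, number 8 in R26P cerebrum and number 9 in R26P cerebellum. Among the 6 group means the highest was R26P mutant cerebrum (10.39 ± 0.39, SD), followed by ret mutants (10.37 ± 0.28) and R26P mutant cerebellum (9.88 ± 0.15). The ret controls (6.33 ± 0.42) and the R26P controls of cerebrum (5.68 ± 0.21) and cerebellum (5.68 ± 0.50) came last. The first and second of these ranges overlapped, as did those of the 3 control groups, while R26P mutant cerebellum lay below both other mutant groups. Wild-type levels, on their own scale, were 7.45, 7.03 and 7.27 in cerebellum and 6.99, 7.24 and 7.40 in cerebrum.

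**Figure D1:**
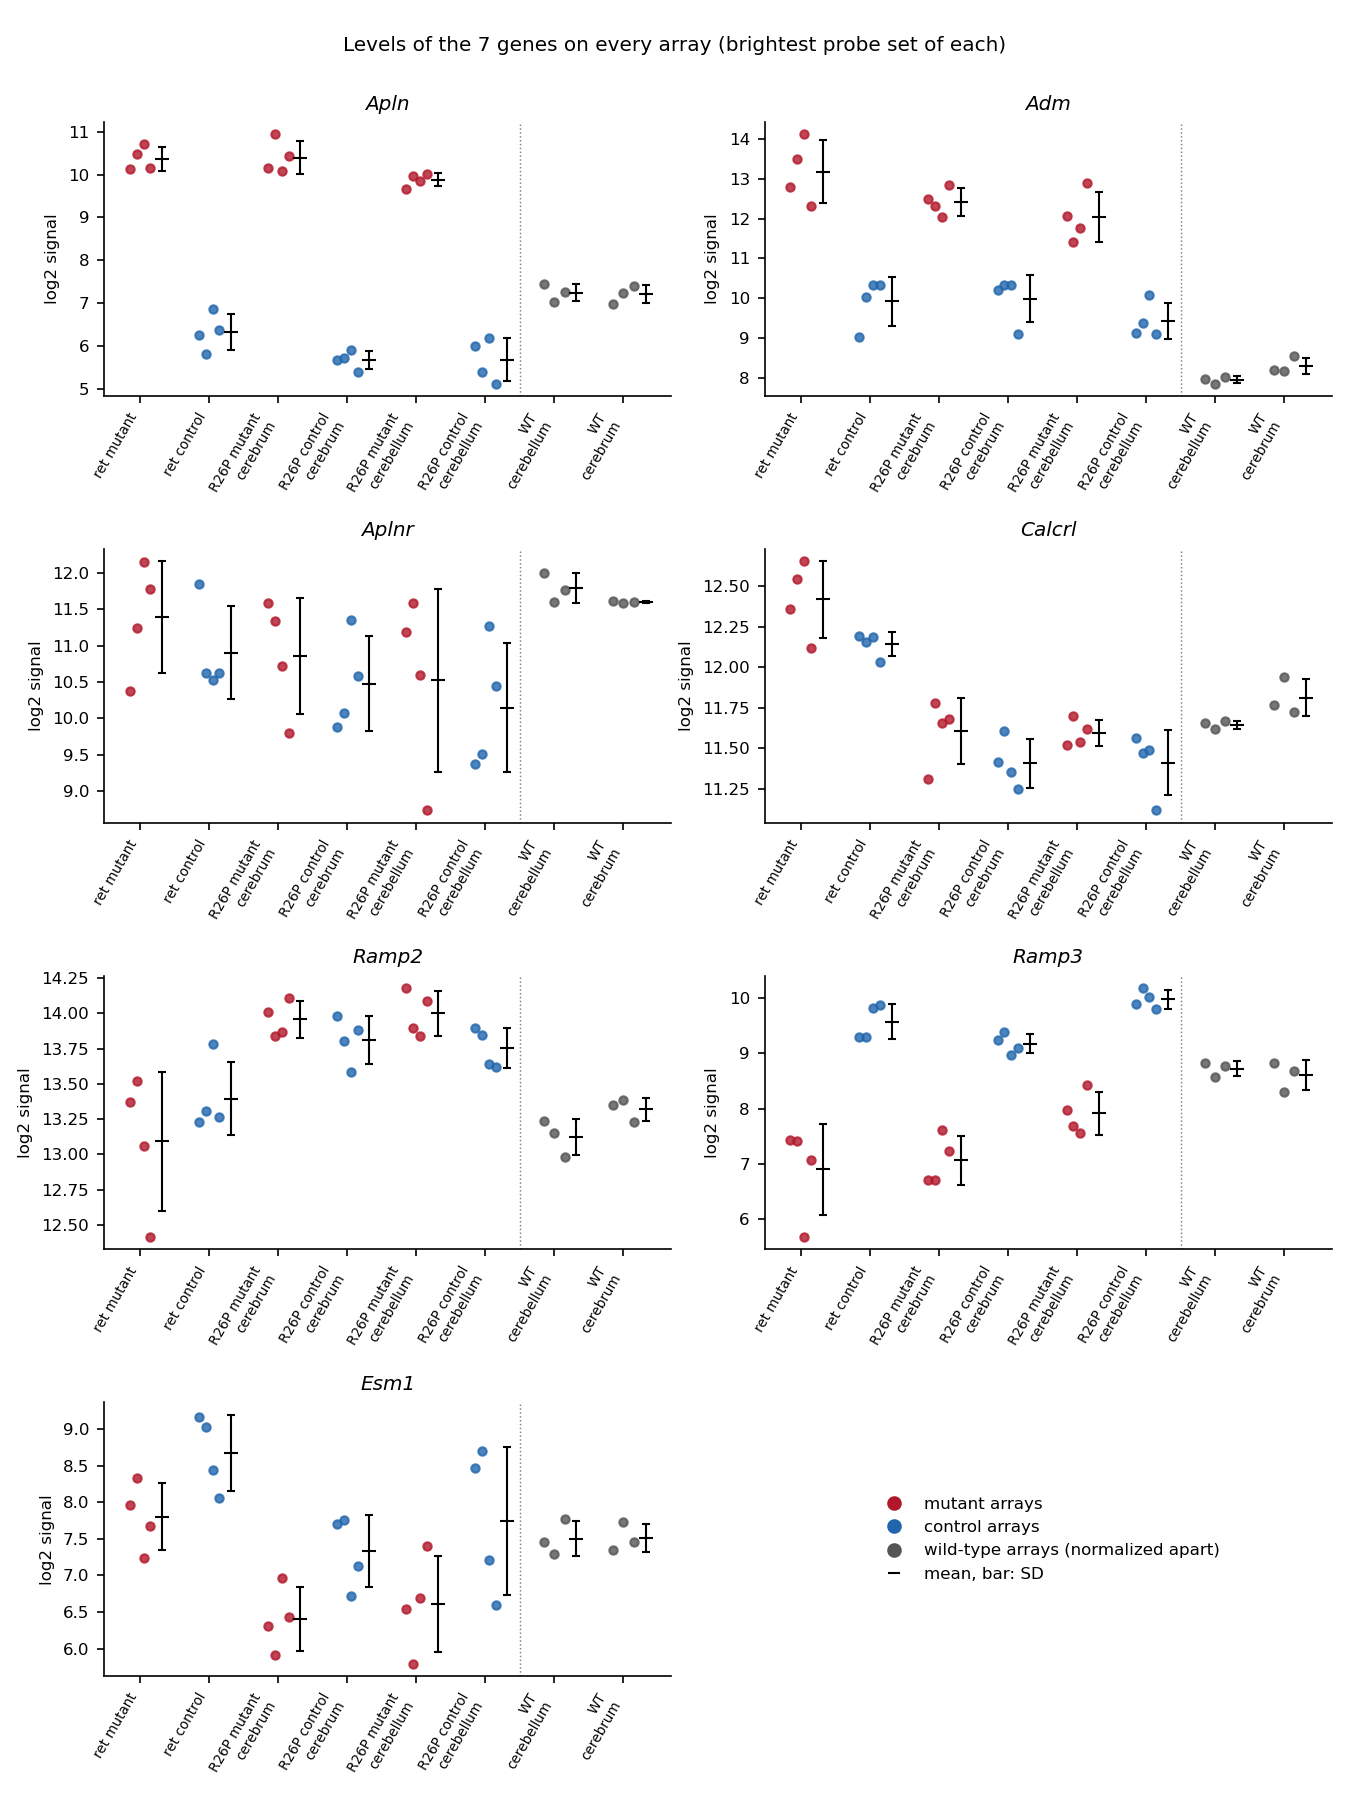
Log2 signal of each of the 7 genes (brightest probe set) on every array, by group. Points are arrays, and the dash and bar beside them are the mean and SD. The dotted line sets off the wild-type arrays, which were taken as normalized apart. Mutant and control points do not overlap for Apln, Adm and Ramp3 in any of the 3 mutant comparisons, and they overlap for the other 4 genes in all 3. The share of all genes without overlap was not counted, so the lack of overlap adds nothing to the tests.

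The second ligand gene, Adm, rose as well, by a smaller factor. It read 12.79, 13.50, 14.12 and 12.31 in the ret mutants, against 9.03, 10.04, 10.32 and 10.33 in the ret controls. It read 12.48, 12.31, 12.03 and 12.85 in R26P mutant cerebrum, against 10.22, 10.33, 10.33 and 9.10 in R26P control cerebrum. It read 12.06, 11.42, 11.76 and 12.90 in R26P mutant cerebellum, against 9.13, 9.37, 10.08 and 9.11 in R26P control cerebellum. The gap between the nearest mutant and control arrays was 1.98 units in ret, 1.71 in R26P cerebrum and 1.34 in R26P cerebellum. The rise was 3.25 ± 0.45 units in ret (9.52-fold, 4.63 to 19.6, limma adjusted p = 0.0033), 2.43 ± 0.31 in R26P cerebrum (5.37-fold, 3.29 to 8.76, adjusted p = 0.0017) and 2.61 ± 0.35 in R26P cerebellum (6.11-fold, 3.50 to 10.6, adjusted p = 0.0027). The ret mutants had the highest mean (13.18 ± 0.79, SD), then R26P mutant cerebrum (12.42 ± 0.34) and R26P mutant cerebellum (12.04 ± 0.63). R26P control cerebrum (9.99 ± 0.60), ret controls (9.93 ± 0.61) and R26P control cerebellum (9.43 ± 0.46) followed. Neighbours within the mutants and within the controls overlapped, and only the step between mutants and controls was free of overlap. A second Adm probe set (1416077_at) is dimmer and moved alike, by 3.81 ± 0.47, 2.34 ± 0.30 and 2.79 ± 0.35 units (limma adjusted p = 0.0025, 0.0022 and 0.0026 over 18851 probe sets), also with no overlap. Ret mutant number 3, the one ret mutant without Gh, had the highest Adm and the highest Apln of the 4. With a term for Gh the ret changes were 4.45 units for Apln and 4.32 for Adm. That fit rests on number 3, and the part of pituitary RNA in either rise was not tested beyond it and the removal of Gh-positive arrays. In wild type Adm read 7.98, 7.86 and 8.03 in cerebellum and 8.20, 8.18 and 8.54 in cerebrum.

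The receptor genes of both ligands showed no change past the threshold. Aplnr read 10.38, 11.25, 12.15 and 11.78 in ret mutants and 11.85, 10.62, 10.52 and 10.62 in ret controls. In R26P cerebrum it read 11.58, 11.34, 10.73 and 9.80 in mutants and 9.89, 10.08, 11.36 and 10.59 in controls. In R26P cerebellum it read 11.18, 11.58, 10.60 and 8.74 in mutants and 9.37, 9.51, 11.27 and 10.45 in controls. The groups overlapped, and the SD of Aplnr was 0.63 to 1.26 in the 6 groups. In wild type, on its own scale, the SD was 0.21 in cerebellum and 0.02 in cerebrum. The differences of 0.49 ± 0.44, 0.38 ± 0.45 and 0.37 ± 0.68 units had 95% intervals of -0.54 to 1.52 in ret, -0.67 to 1.43 in R26P cerebrum and -1.19 to 1.94 in R26P cerebellum, so a rise of 1 unit lay within all 3 intervals and a fall of 1 unit within that of cerebellum. Without the Gh-positive ret mutants only number 3 was left, the ret mutant with the highest Aplnr, and the ret difference was 1.25 units. With a term for Gh the ret difference was 1.29 units (limma adjusted p = 0.32), not past the threshold. Number 3 is the only ret mutant without Gh, so that fit rests on it too. In R26P cerebellum the Aplnr difference was 0.97 units without mutant number 4 and ran from 0.02 to 0.75 with any other array left out. The second Aplnr probe set (1423037_at) did not pass either.

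Calcrl, the shared core of the adrenomedullin receptors, was measured more tightly. It read 12.36, 12.54, 12.65 and 12.12 in ret mutants and 12.19, 12.16, 12.19 and 12.03 in ret controls. It ranged from 11.31 to 11.78 in R26P mutant cerebrum and from 11.25 to 11.61 in R26P control cerebrum, and from 11.52 to 11.70 in R26P mutant cerebellum and from 11.12 to 11.56 in R26P control cerebellum. The differences were 0.27 ± 0.12 units in ret (95% interval -0.004 to 0.55, limma adjusted p = 0.16), 0.20 ± 0.12 in R26P cerebrum (-0.09 to 0.49, adjusted p = 0.29) and 0.18 ± 0.11 in R26P cerebellum (-0.07 to 0.43, adjusted p = 0.29). On this brightest probe set the highest upper bound, 0.55 units, lay under the lower bound of either ligand's rise in each comparison. Relative to endothelial markers, the value in R26P cerebellum turned to -0.04 units. Without ret mutant number 4, the ret difference was 0.375 units and passed (adjusted p = 0.034). On the brightest probe set all 8 ret arrays read higher than all 16 R26P arrays, whatever their genotype. The share of all genes that part the models in this way was not counted, so it is no trait of Calcrl in particular. The labels of the models differ in strain and age, and the brain region of the ret arrays is not named. A second Calcrl probe set (1418489_a_at) was dim, with a mean of 3.85 over all arrays, and on it the models overlapped. It gave 0.38, 0.38 and 0.29 units, with upper bounds of 0.88, 0.83 and 0.60, and did not pass (limma adjusted p = 0.27, 0.23 and 0.20 over 18851 probe sets).

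The accessory proteins parted. Ramp2 stayed within 12.41 to 13.52 in ret mutants and 13.23 to 13.78 in ret controls, with a difference of -0.30 ± 0.25 units (-0.89 to 0.28, limma adjusted p = 0.45). It lay between 13.84 and 14.11 in R26P mutant cerebrum against 13.58 and 13.98 in control cerebrum (0.14 ± 0.11, -0.11 to 0.40, adjusted p = 0.38). In R26P cerebellum it lay between 13.84 and 14.18 in mutants against 13.62 and 13.90 in controls (0.25 ± 0.11, -0.004 to 0.50, adjusted p = 0.16).

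Ramp3, in contrast, fell in every mutant comparison. It read 7.44, 7.41, 5.68 and 7.07 in ret mutants, against 9.30, 9.30, 9.82 and 9.89 in ret controls. It read 6.70, 6.71, 7.61 and 7.24 in R26P mutant cerebrum, against 9.24, 9.39, 8.98 and 9.10 in R26P control cerebrum. It read 7.97, 7.70, 7.56 and 8.44 in R26P mutant cerebellum, against 9.89, 10.19, 10.03 and 9.81 in R26P control cerebellum. Every mutant array was below every control array of the 6 groups. The change was -2.68 ± 0.40 units in ret, 6.40-fold lower (3.37 to 12.1, limma adjusted p = 0.0044). It was -2.11 ± 0.22 units in R26P cerebrum, 4.32-fold lower (3.06 to 6.11, limma adjusted p = 7.4e-04), and -2.06 ± 0.19 units in R26P cerebellum, 4.18-fold lower (3.07 to 5.70, limma adjusted p = 5.9e-04). In ascending order, group means were 6.90 ± 0.83 (SD) in ret mutants, 7.07 ± 0.44 in R26P mutant cerebrum and 7.91 ± 0.39 in R26P mutant cerebellum, then 9.18 ± 0.18 in R26P control cerebrum, 9.58 ± 0.32 in ret controls and 9.98 ± 0.17 in R26P control cerebellum. Of these neighbours, R26P mutant cerebellum and R26P control cerebrum were wholly apart.

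Esm1, the remaining gene, was lower on average in mutants but did not pass. It read 7.96, 8.33, 7.24 and 7.68 in ret mutants and 9.17, 9.03, 8.44 and 8.05 in ret controls (-0.87 ± 0.31 units, -1.60 to -0.15, limma adjusted p = 0.098). It read 6.30, 5.92, 6.97 and 6.44 in R26P mutant cerebrum and 7.71, 7.76, 6.72 and 7.13 in R26P control cerebrum (-0.92 ± 0.29, -1.60 to -0.24, adjusted p = 0.064). It read 6.54, 5.79, 6.70 and 7.40 in R26P mutant cerebellum and 8.47, 8.70, 7.21 and 6.60 in R26P control cerebellum (-1.14 ± 0.53, -2.36 to 0.09, adjusted p = 0.19). The groups overlapped in each case. Of the 2 genes that mark tip cells in the retina, Apln thus passed in every mutant comparison and Esm1 in none. In R26P cerebrum Esm1 passed without mutant number 3 (adjusted p = 0.039), without control number 3 (0.040) and when signals were taken relative to endothelial markers (0.033).

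**Figure D2:**
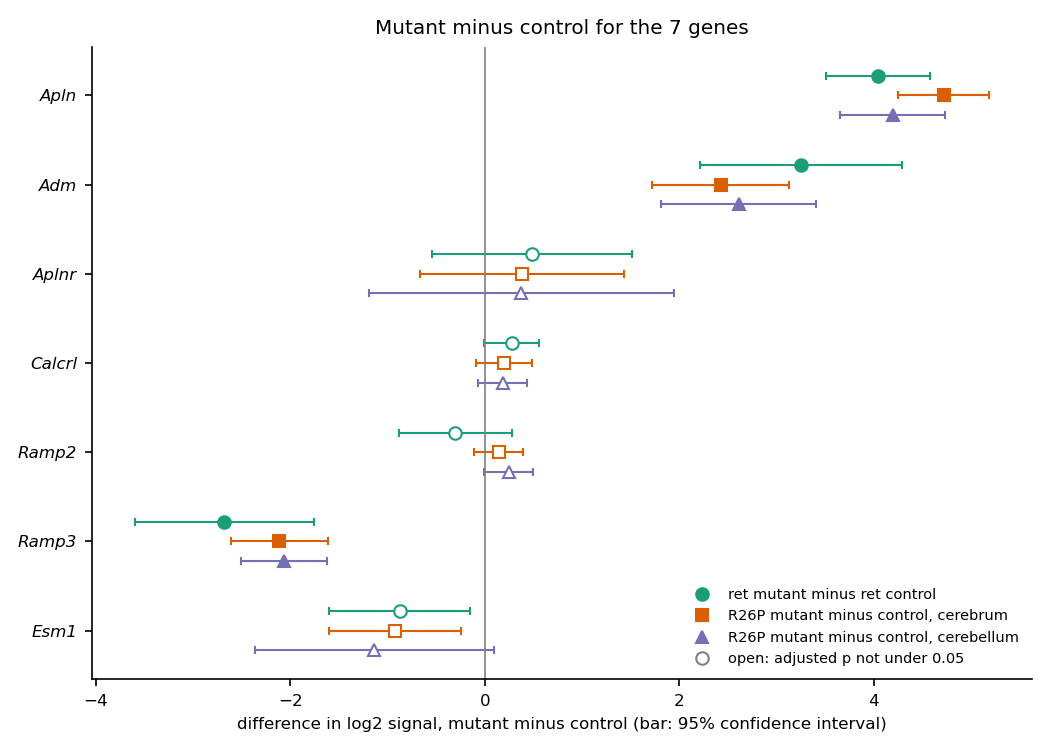
Difference in log2 signal, mutant minus control, for each of the 7 genes in ret and in both regions of R26P; bars are 95% confidence intervals of the limma fit and open symbols did not pass an adjusted p of 0.05. Apln lies at 4.04 to 4.72, Adm at 2.43 to 3.25 and Ramp3 at -2.68 to -2.06, while the other 4 genes have open symbols throughout.

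Taken by number, 3 of the 7 genes passed in ret, 2 higher and 1 lower, against 16.6% of the 11243 genes (8.00% higher and 8.63% lower). The count was again 3 of 7 in R26P cerebrum, against 18.7% of all genes (8.35% higher and 10.3% lower), and 3 of 7 in R26P cerebellum, against 15.6% (6.94% higher and 8.70% lower). The same 3 genes passed each time. The 7 genes were chosen with earlier results of these data known, so these counts are no measure of an excess over all genes. R26P cerebrum and cerebellum arrays of like number may come from the same animals, so those comparisons are not independent of each other.

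Markers of other cells moved with these results. The mean log2 signal of the 10 pericyte markers was 6.74 to 7.77 in ret mutants against 10.64 to 11.15 in ret controls. It was 7.07 to 8.67 in R26P mutant cerebrum against 11.56 to 11.81 in control cerebrum, and 8.11 to 9.72 in R26P mutant cerebellum against 12.38 to 12.47 in control cerebellum. None of the 10 was at the lowest value throughout a group, while Anpep, the 1 marker of 11 that was not tested, was at it in ret mutants and in all R26P groups. Of 6 astrocyte markers 4, 5 and 4 fell in ret, R26P cerebrum and R26P cerebellum, and of 6 smooth muscle markers 1, 6 and 2 fell. Of 4 fibroblast markers 0, 3 and 3 fell (medians -0.47, -1.42 and -1.39 units). Of 3 blood leukocyte markers 3, 1 and 0 rose (medians 1.80, 0.60 and -0.30), with mean levels of 8.85 to 9.97 in ret mutants against 6.16 to 7.03 in ret controls. Of the 14 endothelial markers, 1, 3 and 3 rose, 1, 1 and 0 fell, and 12, 10 and 11 did not pass, with medians of 0.08, 0.02 and 0.14 units. In such bulk RNA, fewer cells of a type and less RNA per cell cannot be told apart, and the part of these cells in the fall of Ramp3 or the rise of Apln and Adm was not tested. Relative to the endothelial markers of each array, a scaling that moved the median of all genes by -0.08, -0.08 and -0.23 units, the changes were 3.96, 4.64 and 3.97 units for Apln, 3.17, 2.34 and 2.38 for Adm and -2.76, -2.19 and -2.29 for Ramp3, all past the threshold.

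The 3 calls were recomputed with Gh-positive arrays left out; the R26P one of these fits was added after seeing the data. Ret mutant number 3 alone against the 4 ret controls, with its spread assumed to be like theirs, gave 4.38 units for Apln (limma adjusted p = 0.012), 4.19 for Adm (0.029) and -3.90 for Ramp3 (0.0088), and by fold the changes of Adm and Ramp3 were over 1.5 times as large as with all arrays. In R26P cerebrum, the 2 mutants and 2 controls without Gh gave 4.75 units for Apln (0.026), 3.01 for Adm (0.087) and -2.20 for Ramp3 (0.056), so that Adm and Ramp3 no longer passed at similar or larger differences.

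Whether the models or the regions differ in these changes was tested directly. The ret change minus the R26P cerebrum change was -0.68 ± 0.32 units for Apln (-1.36 to 0.008, limma adjusted p = 0.24), 0.83 ± 0.57 for Adm (-0.39 to 2.04, adjusted p = 0.41) and -0.57 ± 0.47 for Ramp3 (-1.58 to 0.44, adjusted p = 0.51). None of the 7 genes passed, against 3.35% of all genes, and on their brightest probe sets 0 of the 7 had an unadjusted p under 0.05. The second Adm probe set (1416077_at) gave 1.47 ± 0.58 units (0.23 to 2.71), an interval without 0, at an unadjusted p of 0.023 and a limma adjusted p of 0.17 over 18851 probe sets. The R26P change in cerebellum minus that in cerebrum was -0.52 ± 0.32 units for Apln (-1.22 to 0.17), 0.18 ± 0.48 for Adm (-0.85 to 1.22) and 0.05 ± 0.30 for Ramp3 (-0.60 to 0.69), each with a limma adjusted p of 1. None of the 7 passed, adjusted or unadjusted, against 0.116% of all genes (13 genes, and 29 with the replicate number as a block).

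Between regions of the same genotype, 1 of the 7 genes passed the threshold. Ramp3 was higher in cerebellum than in cerebrum of R26P controls, by 0.80 ± 0.12 units (1.74-fold, 1.44 to 2.11, limma adjusted p = 0.0248, and 0.016 with the replicate number as a block). The difference was 0.65, 0.79, 1.05 and 0.71 units by replicate number, and the groups did not overlap. Of all genes 1.17% passed this comparison (132, and 475 with the block). The call is a narrow one, lost without the expression filter (adjusted p = 0.093) and without any of 6 of the 8 arrays in turn, where it was between 0.052 and 0.087. The pericyte markers moved the same way: 7 of 10 were higher in R26P control cerebellum and 0 lower, with means of 12.38 to 12.47 in cerebellum against 11.56 to 11.81 in cerebrum, and their part in the Ramp3 difference was not tested. In wild type 4 of 10 were higher in cerebellum and 0 lower, with means of 11.84 to 12.06 in cerebellum against 11.16 to 11.50 in cerebrum. Other markers differed between R26P control regions too. Of 6 astrocyte markers 1 was higher and 3 were lower in cerebellum, and 4 fibroblast markers had a median of 1.01 units, none past the threshold. The part of these cells was not tested either. In R26P mutants the Ramp3 difference was 0.85 ± 0.27 units (0.22 to 1.47, adjusted p = 0.68), with 1.27, 0.98, -0.05 and 1.19 by replicate number. Number 3, the pair that goes the other way, had Gh above 8 in both of its arrays, and number 2 had it in its cerebrum array alone. Without number 3, the lowest of the pairs, the difference was 1.15 units (limma adjusted p = 0.32). The part of pituitary RNA in the course of number 3 was not tested. In wild type the Ramp3 difference was 0.12 ± 0.15 units (-0.26 to 0.49, limma adjusted p = 0.75), beside a median of 0.63 units for the pericyte markers. The part of pericytes was not tested there either.

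Apln did not pass between regions of R26P controls (0.01 ± 0.24 units, -0.55 to 0.56, limma adjusted p = 0.999) or wild type (0.04 ± 0.15, -0.33 to 0.41, adjusted p = 0.92). In R26P mutants it was lower in cerebellum in 4 of 4 pairs, by -0.97 to -0.22 units, without overlap of the groups, yet the difference of -0.52 ± 0.19 units did not pass (adjusted p = 0.79). In that comparison 0 genes of 11243 passed in limma, with or without the block, and 621 genes, 2 of the 7 among them, had an unadjusted p under 0.05. Adm was lower in cerebellum of wild type in 3 of 3 pairs, by -0.52 to -0.21 units, again without overlap and without passing (-0.35 ± 0.12, limma adjusted p = 0.23). On the second Adm probe set the regions overlapped, at 7.20 to 7.63 in cerebellum and 7.47 to 7.82 in cerebrum (-0.19 ± 0.14, limma adjusted p = 0.59). Calcrl and Ramp2 were also lower in cerebellum in 3 of 3 wild-type pairs, and Aplnr was higher in 3 of 3. Calcrl was without overlap (-0.17 ± 0.07, limma adjusted p = 0.35) and Ramp2 was not (-0.20 ± 0.09, adjusted p = 0.35). A dim second Calcrl probe set (1418489_a_at) overlapped, at 0.17 ± 0.32 units. Overlap was not counted over all genes. Of all genes 2.12% passed in wild type (238, and 135 with the block), none of them among the 7, of which 1 had an unadjusted p under 0.05. Aplnr varied by replicate number more than by region. R26P control number 3 had the highest Aplnr of the controls in both regions (11.27 in cerebellum and 11.36 in cerebrum), and R26P mutant number 4 the lowest of the mutants in both (8.74 and 9.80).

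**Figure D3:**
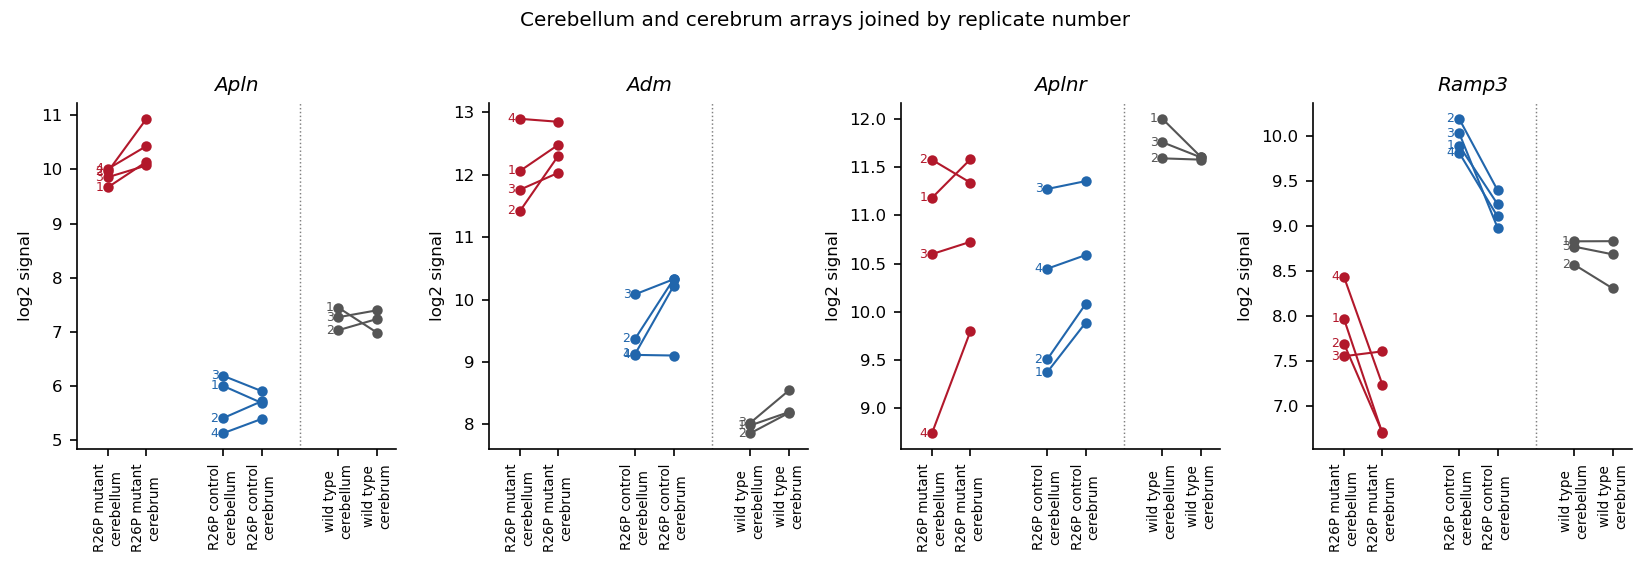
Log2 signal of Apln, Adm, Aplnr and Ramp3 in cerebellum (left end of each line) and cerebrum (right end), for R26P mutants, R26P controls and wild type. Arrays of like replicate number are joined and numbered. Wild type, taken as normalized apart, lies beyond the dotted line. Ramp3 slopes down in all 4 R26P control pairs and in 3 of 4 mutant pairs, and the Aplnr lines keep their order between regions in R26P controls.

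To see which genes follow the same course, each gene was centred on its own mean over the 24 arrays of both models, and genes were ordered by the root-mean-square difference from Apln, Adm or Ramp3 among 11242 others. Nearest to Apln were Hcar1, the lactate receptor, at 0.49 log2 units, Ablim3, an actin-binding protein, at 0.61, and Bmp6, a growth factor of the BMP family, at 0.73, where Apln itself has an SD of 2.24 over those arrays. Hcar1 rose by 4.42 ± 0.33 units in ret, 4.62 ± 0.42 in R26P cerebrum and 4.68 ± 0.38 in R26P cerebellum. It was picked by its course over these same arrays, so its rise is no separate result. Its mean over the 24 arrays was 5.80, and its control arrays stood at -2.91 to -1.76 units from that mean, so its control levels were low. Nearest to Adm (SD 1.55) were Angpt2, a ligand of the Tie2 receptor, at 0.57, Bmp4 at 0.58 and Edn1, the precursor of the vasoconstrictor endothelin, at 0.58. Nearest to Ramp3 (SD 1.29) were the organic anion transporter gene Slco3a1 at 0.47, Cracd, a regulator of actin capping, at 0.53, and Steap4, a metalloreductase, at 0.55. Among each other, Adm was number 11 in the order from Apln (0.96 units) and Apln number 75 in the order from Adm, whereas Ramp3 was number 11108 from Apln. The 24 arrays share the mutant and control grouping, so any gene with a large change in both models comes near.

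**Figure D4:**
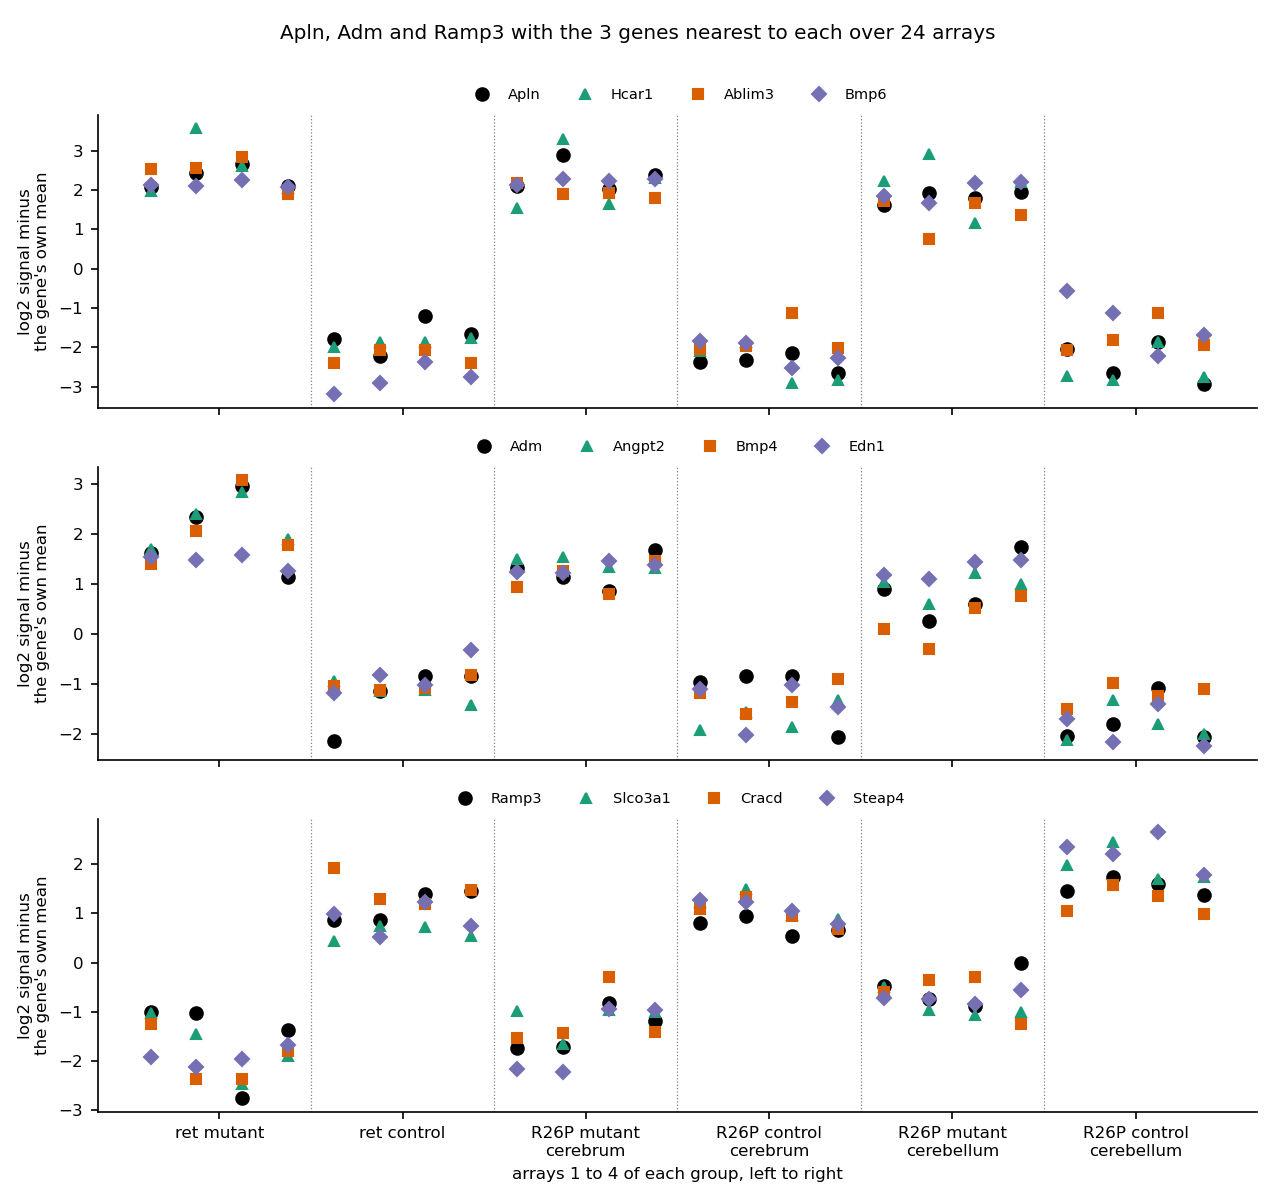
Log2 signal minus the gene's own mean over the 24 ret and R26P arrays for Apln, Adm and Ramp3 (black) and the 3 genes nearest to each (coloured), 4 arrays to a group in order of replicate number. Hcar1, Ablim3 and Bmp6 follow Apln with root-mean-square differences of 0.49, 0.61 and 0.73, and Slco3a1, Cracd and Steap4 follow Ramp3 with 0.47, 0.53 and 0.55.

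Of 28 listed partners, enzymes, decoy receptors and regulators, 23 are on the array and 18 passed the filter. In ret 1 of the 18 was higher and 4 lower, beside 8.00% and 8.63% of all genes (median 0.03 units, against 0.01 over all genes). In R26P cerebrum 0 were higher and 2 lower, beside 8.35% and 10.3% of all genes (median 0.001 against 0.01). In R26P cerebellum 1 was higher and 2 lower, beside 6.94% and 8.70% of all genes (median 0.04 against 0.001). Ramp1, which turns Calcrl into a receptor for calcitonin gene-related peptide, fell like Ramp3, by 0.90 ± 0.24 units in ret (limma adjusted p = 0.039), 2.29 ± 0.29 in R26P cerebrum (0.0017) and 1.76 ± 0.24 in R26P cerebellum (0.0031). Nos3, the endothelial nitric oxide synthase, fell by 0.65 ± 0.12 units in ret (limma adjusted p = 0.0094) and 0.40 ± 0.09 in R26P cerebrum (0.019), and was at -0.09 ± 0.13 in R26P cerebellum (0.68). Klf4, a flow-responsive transcription factor of endothelium, fell by 1.34 ± 0.17 units in ret (limma adjusted p = 0.0021) and was at -0.07 ± 0.11 in R26P cerebrum (0.70), and this difference between models itself passed (-1.28 ± 0.20, adjusted p = 0.0066). Klf2, its relative, fell by 1.06 ± 0.28 units in ret (limma adjusted p = 0.039) and stood at -0.13 ± 0.13 in R26P cerebrum (0.51), without a difference between models past the threshold. No gene of this list was read in the fits with a term for Gh. Gh stood above 8 on 3 of 4 ret mutant arrays and on 0 of 4 ret control arrays, and the part of pituitary RNA was not tested here. Ackr3, a scavenger receptor that binds adrenomedullin, fell by 0.71 ± 0.13 units in R26P cerebellum (limma adjusted p = 0.011), with -0.57 (0.054) in ret and -0.64 (0.070) in R26P cerebrum. Gpr182, a decoy receptor of endothelium, rose by 0.70 ± 0.16 units in R26P cerebellum (limma adjusted p = 0.024), with 0.24 (0.64) in ret and 0.14 (0.59) in R26P cerebrum. Named after their values were seen, the amidating enzyme gene Pam and the hypoxia-inducible factors Hif1a and Epas1 passed in none of the mutant comparisons.

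**Figure D5:**
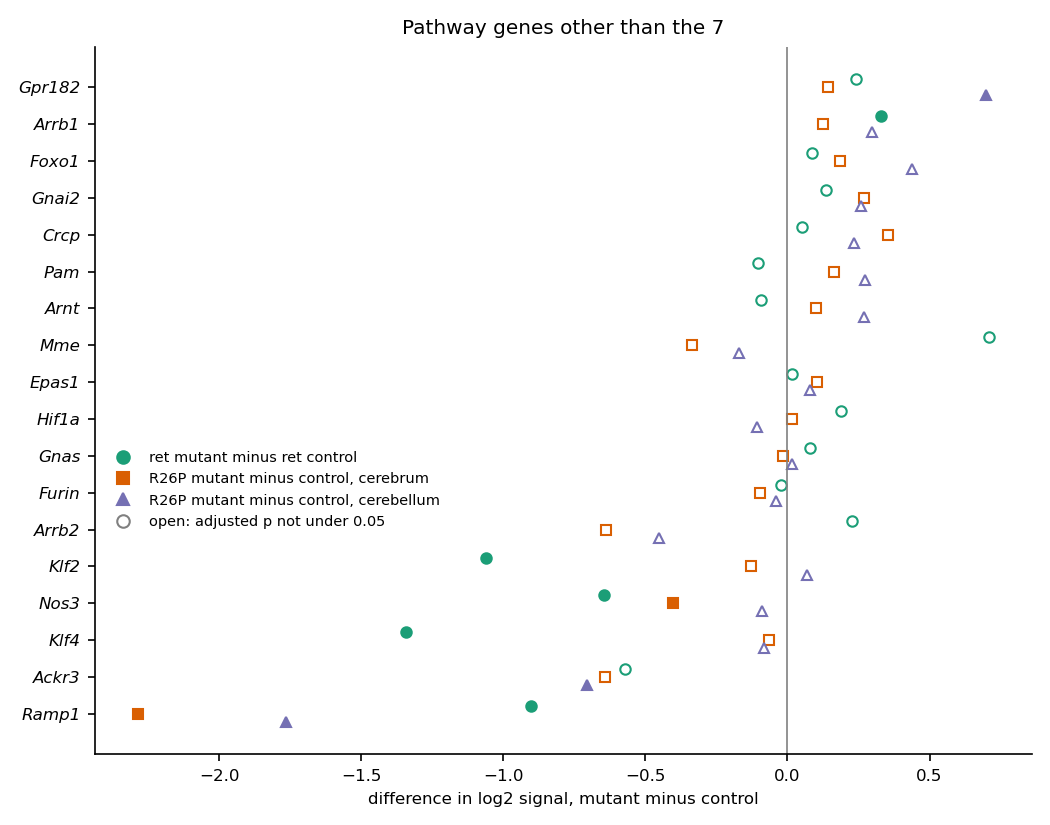
Difference in log2 signal, mutant minus control, of the 18 measured pathway genes other than the 7, in ret and both R26P regions, ordered by their mean difference; open symbols did not pass an adjusted p of 0.05. Ramp1 had the lowest mean, at -0.90 in ret, -2.29 in R26P cerebrum and -1.76 in R26P cerebellum, and Klf4 and Klf2 are low in ret, at -1.34 and -1.06.

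Lists of tip-cell, hypoxia and venous genes were read beside the 7. Of all genes, 8.00% were higher and 8.63% lower in ret; R26P cerebrum had 8.35% higher and 10.3% lower genes, and cerebellum 6.94% higher and 8.70% lower, with all-gene medians of 0.01, 0.01 and 0.001 units. Of 23 measured tip-cell genes, 7 rose and 3 fell in ret (median 0.11 units), 3 rose and 5 fell in R26P cerebrum (0.04), and 2 rose and 7 fell in R26P cerebellum (0.10). Angpt2 rose by 3.35 ± 0.25, 3.09 ± 0.14 and 2.77 ± 0.20 units and Igfbp3, a binding protein of insulin-like growth factors, by 2.08 ± 0.24 in ret and 2.29 ± 0.37 in R26P cerebrum. Mcam, an adhesion molecule that pericytes also carry, fell by 1.72 ± 0.34 units in ret, fell by 2.41 ± 0.32 in R26P cerebrum and fell by 1.56 ± 0.22 in R26P cerebellum, and the list holds Pdgfb, the gene deleted in R26P mutants. Of 23 measured hypoxia response genes, 2 rose and 8 fell in ret (median -0.10), 3 rose and 4 fell in R26P cerebrum (-0.14), and 2 rose and 1 fell in R26P cerebellum (-0.05). Vegfa rose by 1.55 ± 0.33 units in ret and 1.67 ± 0.21 in R26P cerebrum, and Pfkfb3, a driver of glycolysis, by 0.99 ± 0.23, 1.51 ± 0.14 and 1.54 ± 0.19 across ret, R26P cerebrum and R26P cerebellum. P4ha2, which hydroxylates collagen, fell by 2.03 ± 0.32 units in ret, as did Ddit4, an inhibitor of mTOR signalling, by 1.77 ± 0.39. Bhlhe40, a transcriptional repressor, fell by 1.58 ± 0.29, 1.34 ± 0.30 and 0.81 ± 0.18 units. The list thus held members that rose beside Apln and Adm and members that fell. Of 9 measured venous genes, 1 rose and 1 fell in ret (median 0.13), 3 rose and 1 fell in R26P cerebrum (0.37), and 2 rose and 1 fell in R26P cerebellum (0.54). Nr2f2, the transcription factor of venous identity, fell by 0.67 ± 0.17, 0.67 ± 0.17 and 0.78 ± 0.21 units, and Vcam1, a leukocyte adhesion molecule, rose by 0.43 ± 0.11, 0.64 ± 0.17 and 0.74 ± 0.16.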

How the data were processed

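Total RNA of brain microvascular fragments, about 100 ng per sample per the labels, had been hybridised to 30 Affymetrix arrays, and the deposited values are log2 signals that the authors made with GCRMA 2.6.0 under R 2.4.1, per the submitters' processing notes. GCRMA corrects background by probe sequence, normalizes by quantiles and summarises each probe set. The lowest value is shared within 24 ret and R26P arrays (2.16, taken by 35.8% to 37.0% of values) and within 6 wild-type arrays (2.17, 32.3% to 32.7%). From this the 2 sets were taken as normalized apart. Values were used as deposited, with 0 value columns left out. Summed signal carries no depth, and the number of arrays limits the precision.

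Of 45101 probe sets, 34958 are paired with 1 gene, 932 with several and 9211 with none, by the platform annotation. Each gene was read from its brightest probe set and tested if that was above 4 in at least 3 arrays. The tests were made by limma, version 3.58.1, under R 4.3.3 (moderated two-sided tests), with Benjamini-Hochberg adjustment over 11243 genes and a threshold of 0.05; the code was tested on simulated data. Other probe sets were adjusted over 18851. To be named, by plan, were the 7 genes with all their probe sets, up to 4 genes past the threshold in each list (largest first), up to 3 nearest genes, and check genes for genotype, pituitary RNA, endothelium and pericytes. In the pathway and hypoxia lists more than 4 genes past the threshold were named. The genes and lists were chosen with earlier results of these data known.

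Replicate numbers pair the regions: deviations from group means correlated between arrays of like number at 0.34 to 0.48 in wild type, 0.48 to 0.65 in R26P controls and 0.55 to 0.84 in R26P mutants. The arrays matched best with their own number in 3 of 3, 4 of 4 and 4 of 4 cases there. Between mutants and controls the correlations ran from -0.20 to 0.34. Their arrays matched best with their own number in 0 of 4 cases in ret, 2 of 4 in R26P cerebrum and 1 of 4 in R26P cerebellum. Alternatives changed the filter, the probe set rule, the prior, the normalization, the scaling (relative to endothelial markers), the replicates and the block; a term for Gh and the removal of Gh-positive arrays were also tried, and for R26P these, like a term for Xist in all mutant comparisons, were added after seeing the data.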

Additional observations from a re-analysis of the deposited data

Results flagged for a closer look

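In 3 of 42 groups of 4 arrays, 1 array stood apart from the other 3 by more than Dixon's 95% critical value for the share of the whole range, a mark that chance passes in about 1 group in 20. Aplnr read 11.85 in ret control number 1, against 10.52 to 10.62 in the other ret controls. Adm read 9.10 in R26P control cerebrum number 4, against 10.22 to 10.33 in the others. Ramp2 read 13.78 in ret control number 3, against 13.23 to 13.31 in the others. The cause was not tested for any of them.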

How the results depend on the processing

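The calls of Apln in the 3 mutant comparisons held under every alternative run. Those of Adm and Ramp3 held under all but 1: with the Gh-positive arrays of R26P cerebrum left out, 2 arrays a group, 1 of the 7 genes passed, Apln, and 237 genes in all. Of 1078 member changes recomputed under alternatives, 77 turned sign, each of them past the threshold in neither fit. With the replicate number as a block the same counts of the 7 genes passed as without it. Mutants and controls share only a number, and the block gave 987 genes called in ret, 1278 in R26P cerebrum and 68 for ret minus R26P, against 1870, 2097 and 377 without it. Between regions it gave 135 in wild type, 475 in R26P controls and 29 for the R26P difference of effects, against 238, 132 and 13 without it.

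Without the expression filter the genes called were 1229 in ret, 1390 in R26P cerebrum, 1081 in R26P cerebellum, 58 in wild type, 47 in R26P control regions, 1 in R26P mutant regions, 6 for the R26P difference of effects and 177 for ret minus R26P, and 0 of the 7 genes then passed in R26P control regions; more genes were tested. A mean above 6 gave 151 in wild type and 0 for the R26P difference of effects (limma; 309 genes had an unadjusted p under 0.05 before that restriction), and averaging probe sets gave 68 in R26P control regions and 4 for that difference. Endothelial scaling gave 3059 in R26P cerebellum, 458 in wild type and 104 for ret minus R26P, and turned Calcrl in R26P cerebellum to -0.044 and Ramp3 in the R26P difference of effects to -0.098. A renewed quantile normalization turned Apln in R26P control regions to -0.045. A term for Gh gave 821 genes in ret and 1146 in R26P cerebellum. Leaving out the Gh-positive ret mutants gave 919, and leaving out R26P mutant number 3 gave 1117 in R26P cerebellum, 15 in R26P mutant regions and 6 for the R26P difference of effects. The cause of these shifts was not tested.

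Leaving out 1 array at a time gave 1153 (without ret control 2) to 1931 genes in ret, 1387 (without control 1) to 1945 in R26P cerebrum, 1117 (without mutant 3) to 1572 in R26P cerebellum, 12 (without cerebellum 3) to 159 in wild type, 48 (without cerebellum 4) to 193 in R26P control regions with 0 to 1 of the 7, 0 to 42 (without cerebrum 3) in R26P mutant regions, 6 to 14 for the R26P difference of effects and 127 (without ret control 1) to 611 for ret minus R26P. Over the same fits the Apln region difference ran from -0.068 to 0.15 in wild type and from -0.16 to 0.19 in R26P controls, and that of Ramp3 in wild type from -0.035 to 0.23. The R26P difference of effects ran from -0.10 to 0.48 for Adm and from -0.13 to 0.23 for Ramp3.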
